A study of Mus musculus with 18 samples.

Results

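The subject is a set of 9 mouse genes of the synuclein family and of familial Parkinson disease: the synuclein genes Sncb and Sncg, the mitochondrial quality control genes Pink1 and Park7, the ubiquitin system genes Uchl1 and Fbxo7, and the membrane trafficking genes Lrrk2, Vps35 and Atp13a2. Members were the genes with 1 of these symbols as the single symbol of a probe set in the array's annotation, and all 9 were measured, by 14 of 34945 such probe sets, among 18193 genes in all. RNA came from cells labelled as dopamine neurons, which were taken by laser from 2 midbrain regions of adult C57Bl/6 mice, the substantia nigra (SN) and, beside it, the ventral tegmental area (VTA). All mice carried the hTH-GFP transgene, in which regulatory sequence of the human tyrosine hydroxylase gene drives green fluorescent protein, and had been singly housed for 9 weeks. They received MPTP, a precursor of a toxin that enters dopamine neurons and blocks complex I of the respiratory chain. The dose was 4 mg/kg, given over 2 or over 10 days, and controls received saline over 10 days. All were killed 7 days after their last injection, so the 2 day group also had fewer injection days than its saline control. There were 3 arrays for each treatment in each region, hence 18, described by the labels as biological replicates. Controls are named untreated in the sample descriptions but receive saline in the protocol. The sources used here do not give the number of mice or cells behind an array or say whether SN and VTA arrays share mice.

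Synucleins are small presynaptic proteins that bind the membranes of synaptic vesicles, and dopamine neurons of the midbrain are rich in gamma-synuclein, the product of Sncg. Loss of the kinase PINK1, which marks damaged mitochondria for removal, or of DJ-1, the oxidation-sensitive protein encoded by Park7, causes recessive parkinsonism in humans. FBXO7, an F-box subunit of a ubiquitin ligase, and ATP13A2, a lysosomal ATPase that transports polyamines, also cause recessive forms, whereas mutations in the kinase LRRK2 and in the retromer subunit VPS35 act dominantly. UCHL1 is a ubiquitin hydrolase and one of the most abundant proteins of neurons, and its link to familial disease rests on little genetic evidence. In mice, MPTP harms SN dopamine neurons more than those of the VTA.

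Promoters of 8 of the 9 genes were matched by symbol in a RefSeq table of the assembly GRCm38.p6, each window holding the 250 bases before and the 50 bases after an annotated start. Those of Sncg, Park7 and Uchl1 are printed because the signals of these 3 genes varied together over the arrays, and that of Sncb because this other synuclein gene did not join them. Capitals mark the GC box GGGCGG, the CCAAT box and the cAMP core motif TGACG, each on either strand. Windows lie at chr14:34374620-34374919 for Sncg, chr4:150909872-150910171 for Park7 and chr13:54766546-54766845 for Sncb, all on the minus strand, and at chr5:66675871-66676170 on the plus strand for Uchl1, written 5′ to 3′ along the gene.
Sncg: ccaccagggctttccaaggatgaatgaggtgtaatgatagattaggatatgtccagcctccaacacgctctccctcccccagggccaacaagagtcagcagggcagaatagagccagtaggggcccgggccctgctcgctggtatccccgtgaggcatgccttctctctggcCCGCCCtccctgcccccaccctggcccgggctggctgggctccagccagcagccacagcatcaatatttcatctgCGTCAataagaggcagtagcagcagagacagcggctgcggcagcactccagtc
Park7: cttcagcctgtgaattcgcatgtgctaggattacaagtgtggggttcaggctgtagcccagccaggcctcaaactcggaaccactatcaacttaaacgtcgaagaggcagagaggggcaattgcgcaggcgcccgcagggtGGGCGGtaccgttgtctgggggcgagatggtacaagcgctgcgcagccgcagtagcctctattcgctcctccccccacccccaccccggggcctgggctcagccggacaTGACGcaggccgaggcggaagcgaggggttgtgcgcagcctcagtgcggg
Uchl1: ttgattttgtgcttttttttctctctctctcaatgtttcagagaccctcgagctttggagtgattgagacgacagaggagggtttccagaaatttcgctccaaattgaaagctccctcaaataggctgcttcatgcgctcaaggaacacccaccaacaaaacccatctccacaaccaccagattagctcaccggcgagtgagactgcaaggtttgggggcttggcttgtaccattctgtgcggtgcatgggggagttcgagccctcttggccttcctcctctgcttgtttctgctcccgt
Sncb: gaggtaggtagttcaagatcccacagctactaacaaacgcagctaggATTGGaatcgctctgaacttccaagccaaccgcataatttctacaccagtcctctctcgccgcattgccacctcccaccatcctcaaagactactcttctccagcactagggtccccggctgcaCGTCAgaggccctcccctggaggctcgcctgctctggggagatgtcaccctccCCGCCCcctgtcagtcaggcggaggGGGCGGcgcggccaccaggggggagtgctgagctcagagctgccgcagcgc

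The GC box was found in 6 of the 9 windows of the 8 genes (Fbxo7 has several starts) and in 35.7% of all 32851 windows of this length in the table. TGACG was in 5 of these windows against 20.8%, and the CCAAT box in 1, that of Sncb, against 37.4%. The NR4A element AAAGGTCA, letters bound by NR4A2, a transcription factor of dopamine neurons, was in 0 of them against 1.51%, and the TATA box TATAAA in 0 against 13.6%. The cAMP element TGACGTCA, which contains TGACG, was in 0 against 1.79%, the E-box CACGTG in 1, that of Fbxo7, against 7.15%, and the homeodomain site TAATCC in 1, that of Park7, against 7.06%. All 8 motifs were searched on both strands. Uchl1 held none of them, so none was in all 3 of Sncg, Park7 and Uchl1. The window of Uchl1 held 50.7% G and C letters. The other member windows ran from 58% for Pink1 to 70.3% for one of Fbxo7, against a median of 52.7% over all windows. Motif counts were not adjusted for this. A match describes letters in the window and no more.

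Deposited signals are log2 values in which each probe set's median over the 18 arrays is 0. They therefore give no absolute level, no order of expression between genes and no detection call, and the cell type labels could be checked only as differences between arrays. Arrays differed in their dopamine identity genes. The mean of 19 dopamine identity genes, such as the tyrosine hydroxylase gene Th, ran from 0.33 to 0.87 on the log2 scale over the saline SN arrays and from -0.45 to 0.66 over the saline VTA arrays. The first saline VTA array was the low one, at -0.45, with the other two at 0.66 and 0.61. The 2 day and 10 day SN arrays ran from -0.56 to -0.14 and from -0.18 to 0.28, the matching VTA arrays from -0.77 to 0.14 and from -0.24 to 0.56. Saline SN replicate 1 and 2 day VTA replicate 1 had the widest spread of all genes. The number of arrays limits the precision.

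No member passed limma's test (Benjamini-Hochberg adjusted p under 0.05 over 18193 genes) in any of 14 comparisons. Few genes passed at all. Called were 0% of genes in 2 day against saline SN, 0.0055% in 10 day against saline SN, 0.011% in each of the matching VTA comparisons, 0.0165% in 10 against 2 day SN and 0.033% in 10 against 2 day VTA. Between VTA and SN 0% were called at each treatment and averaged over treatments, and 0% for the VTA minus SN response at either duration. Averaged over the regions, 0.0879% of genes were called for 2 days and 0.0385% for 10 days of MPTP. At an unadjusted p under 0.05 the members counted 2 of 9 in 2 day SN against 6.65% of all genes, 3 of 9 in 10 day SN against 5.57%, 0 in 2 day VTA against 8.06% and 0 in 10 day VTA against 5.41%. The 2 genes in 2 day SN were Sncg and Park7, the 3 genes in 10 day SN were these and Uchl1, and all were lower than in saline. Both SN comparisons share their saline arrays. The median member difference was -0.15 in 2 day SN, where the median of all genes was -0.027, and -0.078 in 10 day SN, where it was -0.017. In the VTA these medians were -0.019 after 2 days and 0.047 after 10 days, with all genes at -0.0082 and -0.0047.

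**Figure D1:**
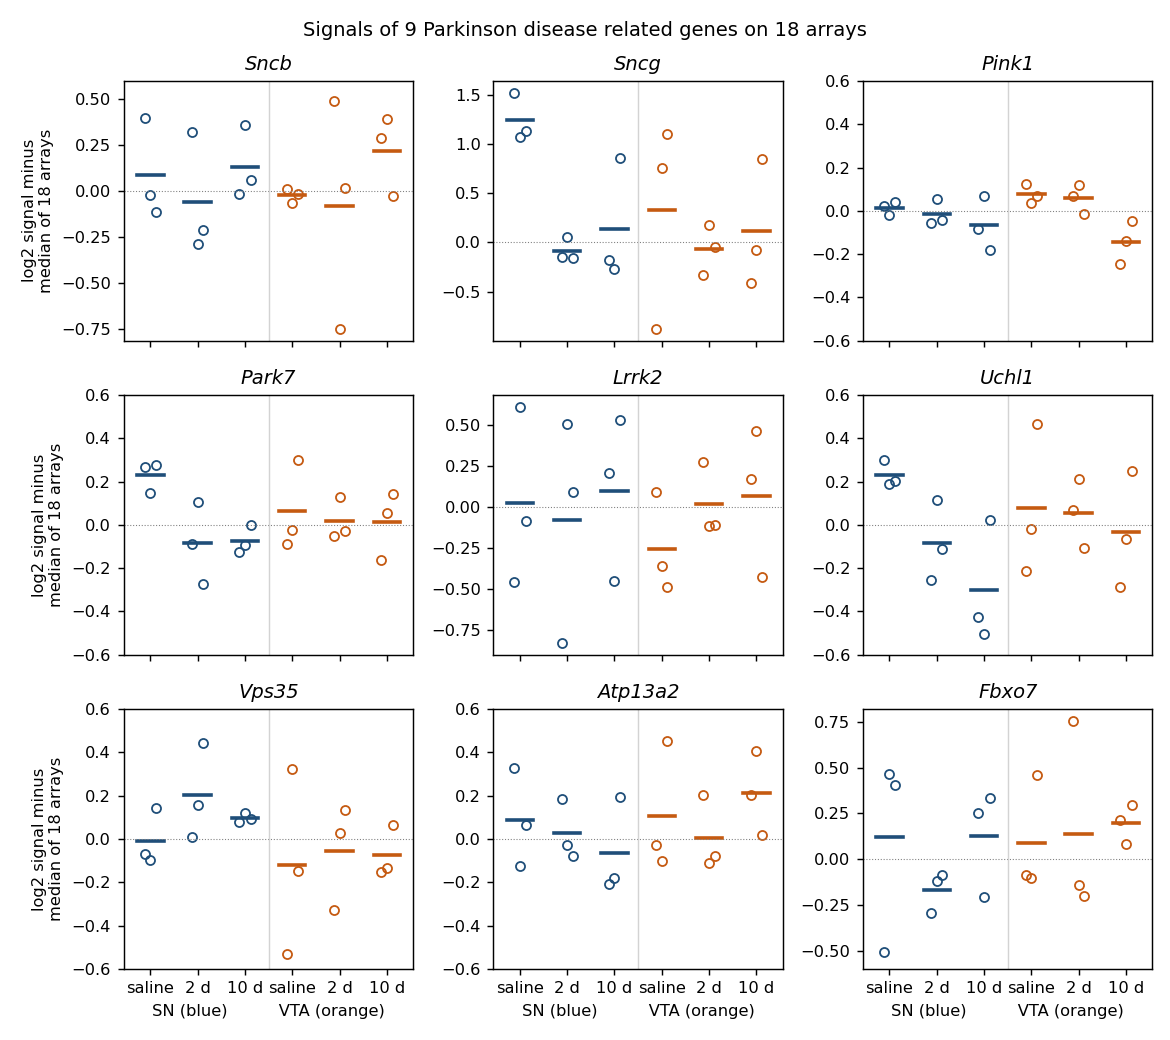
Log2 signal of the 9 genes minus the median of 18 arrays (vertical axes, scaled by gene) on every array (circles) with group means (bars), by treatment and region (SN blue, VTA orange; d, days of MPTP). Sncg, Park7 and Uchl1 are higher on the 3 saline SN arrays than on the other SN arrays, Pink1 is lowest on average after 10 days in the VTA, and the other 5 genes overlap between saline and MPTP arrays of a region.

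Sncg, the gamma-synuclein gene, had the largest differences of the set in the SN. Its signals on the 3 saline SN arrays were 1.52, 1.07 and 1.13, the highest of the region. After 2 days of MPTP they were -0.15, 0.051 and -0.16, and after 10 days -0.18, -0.27 and 0.86. Neither MPTP group overlapped the saline SN arrays, and 1 of the 10 day arrays, replicate 3, lay far above the others and closest to saline. The 2 day difference was -1.33 ± 0.42 (SE), or 2.51-fold lower, with a 95% interval of -2.23 to -0.43 in log2 units, and did not pass (limma, adjusted p = 0.646, unadjusted p = 0.00650). After 10 days the difference was -1.10 ± 0.42 and did not pass either (limma, adjusted p = 0.879), ranging from -1.47 to -0.90 as each array was left out. Groups that did not overlap were found for 3 of 9 members in each of these comparisons, namely Sncg, Park7 and Uchl1, against 14.5% of all genes after 2 days and 11.3% after 10 days. Both comparisons use the same 3 saline SN arrays, and these 3 genes varied together over the arrays. The counts are therefore not separate results. In captured tissue, fewer dopamine neurons in a sample and less RNA per neuron cannot be told apart. Beside these values, all 19 measured dopamine identity genes were lower than in saline in both SN comparisons, with median differences of -0.97 and -0.51, and Th itself was at -1.29 ± 0.52 and -0.86 ± 0.52. Among markers of other cells, 10 of 12 astrocyte genes were higher in each SN comparison, with median differences of 0.23 and 0.15. Of 10 oligodendrocyte genes 8 and 9 were lower, with a median of -0.22 in both, and all 4 measured erythrocyte genes were lower, with medians of -0.52 and -0.46. Ependyma and choroid plexus genes were higher for 4 of 8 after 2 days and 5 of 8 after 10 days, with medians of 0.0076 and 0.29, and their highest member was Ttr, at 2.23 ± 2.30 and 4.76 ± 2.30. None of these marker genes was called. Over the 18 arrays Sncg had r = -0.0669 with the astrocyte mean and 0.280 with the oligodendrocyte mean, and neither passed (rho = -0.209 and 0.115; permutation, adjusted p of r = 0.903 and 0.707, of rho = 0.838 and 0.838). Within the 9 SN arrays Sncg had r = -0.383 with the astrocyte mean and 0.470 with the oligodendrocyte mean. Within the 9 VTA arrays r was 0.187 and 0.127, and these values by region were not tested. The relation of Sncg with the erythrocyte and ependyma markers was not tested.

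In the VTA the Sncg signals on the saline arrays were -0.88, 0.76 and 1.10, the widest scatter of any group for this gene. They were -0.33, 0.18 and -0.051 after 2 days and -0.41, -0.075 and 0.84 after 10 days. All 3 groups overlapped, and saline VTA replicate 1, the lowest of all 18 arrays, was also the saline array with the low dopamine identity mean. Differences from saline were -0.39 ± 0.42 after 2 days and -0.21 ± 0.42 after 10 days, and they turned on 2 saline arrays. Without saline VTA replicate 1 they became -0.99 and -0.81, and without saline VTA replicate 3 -0.0059 and 0.18 (limma, adjusted p of at least 0.446 and 0.782 over all settings run). The VTA response minus the SN response was 0.93 ± 0.60 after 2 days and 0.90 ± 0.60 after 10 days. It did not pass (limma, unadjusted p = 0.139 and 0.153) and was 0.33 and 0.30 without saline VTA replicate 1 and 1.32 and 1.29 without saline VTA replicate 3. With this scatter a difference in response between the regions was not shown. Averaged over regions, the 2 day difference was -0.86 ± 0.30 (limma, adjusted p = 0.280; the smallest adjusted p of any member), with 11.1% of all genes at an unadjusted p under 0.05. An exact two-sided permutation of treatment within region gave p = 0.03, with 0.005 the smallest it can give, before any correction for the 27 such tests run on members. This p was 0.09 without the 2 arrays of widest spread and ran from 0.005 to 0.115 as each array was left out. The 10 day average was -0.66 ± 0.30 (limma, adjusted p = 0.627), with 7.74% of all genes at an unadjusted p under 0.05.

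Park7, the DJ-1 gene, had signals of 0.27, 0.15 and 0.28 on the saline SN arrays. They were -0.089, 0.11 and -0.27 after 2 days and -0.13, -0.095 and 0.0005 after 10 days in the SN. The saline arrays were above every MPTP array of the region, by a narrow margin over 2 day replicate 2. Differences were -0.32 ± 0.14 (1.25-fold lower) and -0.31 ± 0.14 (1.24-fold lower), neither of which passed (limma, adjusted p = 0.713 and 0.889). Both of its probe sets were lower, at -0.38 ± 0.16 and -0.26 ± 0.14 after 2 days, and they correlated with r = 0.897 over the 18 arrays. In the VTA, the saline arrays were at -0.090, -0.023 and 0.30, the 2 day arrays at -0.053, 0.13 and -0.026 and the 10 day arrays at -0.16, 0.053 and 0.14. These groups overlapped, with differences of -0.045 ± 0.14 and -0.051 ± 0.14, and the VTA minus SN response was 0.27 ± 0.19 after 2 days and 0.25 ± 0.19 after 10 days (limma, unadjusted p = 0.178 and 0.207).

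Uchl1, the ubiquitin hydrolase gene, read 0.30, 0.19 and 0.20 on the saline SN arrays. Its values were -0.26, 0.11 and -0.11 after 2 days and -0.43, -0.50 and 0.021 after 10 days. All MPTP arrays of the SN were below all saline ones, and replicate 3 of the 10 day group was again the highest of its group. Differences were -0.31 ± 0.19 after 2 days (1.24-fold lower; limma, adjusted p = 0.813) and -0.53 ± 0.19 after 10 days (1.45-fold lower; adjusted p = 0.864). Without that replicate the 10 day difference was -0.70. In the VTA the arrays overlapped, with saline at -0.21, -0.021 and 0.46, 2 days at 0.068, 0.21 and -0.11 and 10 days at -0.29, -0.064 and 0.25. Here the differences were -0.019 ± 0.19 and -0.11 ± 0.19, and the VTA minus SN response was 0.30 ± 0.27 and 0.42 ± 0.27, which did not pass (limma, unadjusted p = 0.291 and 0.137). General neuron markers, which UCHL1 protein is often counted among, had median differences of -0.024 and -0.064 in the SN, and the SN astrocyte marker median was 0.23 after 2 days, with 10 of 12 higher, and 0.15 after 10 days. Over the 18 arrays Uchl1 had r = 0.467 with the general neuron mean and -0.272 with the astrocyte mean, and neither passed (rho = 0.449 and -0.412; permutation, adjusted p of r = 0.452 and 0.707, of rho = 0.325 and 0.363).

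**Figure D2:**
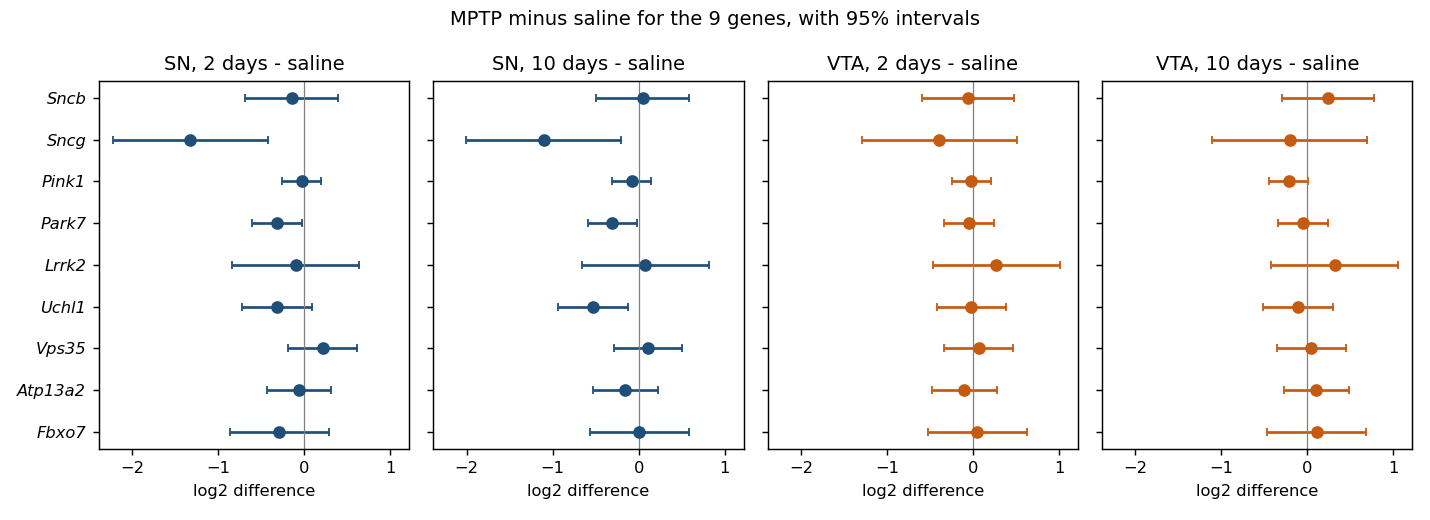
Log2 difference of MPTP from saline (horizontal axes) for the 9 genes in each region and duration; points are limma estimates and bars 95% intervals before adjustment. Intervals of Sncg and Park7 leave 0 out in both SN panels and that of Uchl1 in the 10 day SN panel, all intervals of the VTA panels include 0, and no difference passed after adjustment.

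In the VTA, Pink1, the mitochondrial kinase gene, was the 1 member whose saline and 10 day arrays did not overlap. Its saline VTA arrays were at 0.12, 0.038 and 0.068 and the 2 day arrays at 0.068, 0.12 and -0.013. After 10 days they were at -0.24, -0.14 and -0.045, below every other VTA array. The 10 day difference was -0.22 ± 0.11 (1.16-fold lower; limma, adjusted p = 0.912, unadjusted p = 0.0571) and that from 2 days -0.20 ± 0.11 (limma, adjusted p = 0.827). Groups did not overlap for 1 of 9 members in each, against 9.31% and 10.2% of all genes. In the SN, Pink1 was at 0.021, -0.018 and 0.041 in saline, -0.056, 0.053 and -0.043 after 2 days and -0.083, 0.070 and -0.18 after 10 days, with overlap and differences of -0.029 ± 0.11 and -0.078 ± 0.11. Both probe sets were lower after 10 days in the VTA, at -0.30 ± 0.14 and -0.14 ± 0.12. Averaged over regions the 10 day difference was -0.15 ± 0.076 (limma, adjusted p = 0.670), and the exact two-sided permutation gave p = 0.025, uncorrected for the 27 tests, which was 0.05 without 10 day SN replicate 3. Pink1 had one of the smallest spreads on the arrays: the SD of its signal over the 18 arrays was 0.101, and 99.0% of genes had a larger one.

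Sncb, the beta-synuclein gene, did not share the pattern of Sncg. On saline SN arrays it was at 0.40, -0.019 and -0.11, after 2 days at 0.32, -0.29 and -0.21 and after 10 days at -0.017, 0.36 and 0.058. The highest and lowest arrays of these groups overlapped, with differences of -0.15 ± 0.25 and 0.045 ± 0.25 whose 95% intervals ran over -0.68 to 0.39 and -0.49 to 0.58. In the VTA its saline arrays lay close together at 0.014, -0.065 and -0.014, whereas the 2 day arrays were at 0.49, -0.75 and 0.017 and the 10 day arrays at 0.29, 0.39 and -0.029. The 2 day VTA group held both the highest and the lowest Sncb signal of the 18 arrays, and the differences from saline were -0.060 ± 0.25 and 0.24 ± 0.25.

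The trafficking genes did not separate the treatments either. Vps35, which encodes the core retromer subunit, was at -0.071, -0.099 and 0.14 in saline SN, 0.011, 0.16 and 0.44 after 2 days and 0.079, 0.12 and 0.093 after 10 days, with differences of 0.21 ± 0.19 and 0.11 ± 0.19. Its probe sets disagreed: one was at -0.019 ± 0.17 and the other at 0.45 ± 0.27 in the 2 day SN comparison, and their r over arrays was 0.377. After 10 days the VTA arrays, at -0.15, -0.13 and 0.065, lay below the SN arrays without overlap, a pattern of 1 of 9 members against 9% of all genes, with a difference of -0.17 ± 0.19 (limma, adjusted p = 1.00). Saline VTA arrays of Vps35 scattered over -0.53, 0.32 and -0.15, and the VTA differences were 0.065 ± 0.19 after 2 days and 0.047 ± 0.19 after 10 days. Averaged over treatments, VTA minus SN was -0.18 ± 0.11 (limma, adjusted p = 0.972). In both of these region comparisons only 1 of the 2 probe sets was lower in the VTA. After 10 days they were at 0.0061 ± 0.17 and -0.35 ± 0.27, and averaged over treatments at 0.0011 ± 0.096 and -0.36 ± 0.16.

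Lrrk2, the kinase gene, had the second widest spread of the set, with an SD of 0.417 over 18 arrays, and its 3 arrays within a group differed more than the group means. Saline SN arrays were at -0.46, 0.61 and -0.088 and 2 day SN arrays at -0.83, 0.50 and 0.088, so each group spanned about the range of the other. The 10 day SN arrays were at 0.21, -0.45 and 0.53. Differences were -0.10 ± 0.35 and 0.075 ± 0.35 in the SN, and 0.27 ± 0.35 and 0.32 ± 0.35 in the VTA, where group means were -0.25 in saline, 0.017 after 2 days and 0.067 after 10 days. The lysosomal ATPase gene Atp13a2 had SN group means of 0.089, 0.026 and -0.066 and VTA means of 0.11, 0.0036 and 0.21 for saline, 2 and 10 days. Its 4 differences from saline ran from -0.15 ± 0.18 to 0.10 ± 0.18, all smaller than their SE. Of its 3 probe sets a single pair correlated well, with r = 0.704, against -0.136 and 0.0583 for the other pairs, so its mean joins signals that do not follow each other.

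Fbxo7, the F-box gene, was at -0.51, 0.47 and 0.40 on saline SN arrays, of which replicate 1 was the lowest of all 18 arrays. It was at -0.30, -0.12 and -0.088 after 2 days and 0.25, -0.21 and 0.33 after 10 days. The groups overlapped, and the differences were -0.29 ± 0.27 and 0.0062 ± 0.27. In the VTA its saline arrays were at -0.085, -0.10 and 0.46, its 2 day arrays at 0.76, -0.14 and -0.20 and its 10 day arrays at 0.22, 0.085 and 0.30, with differences of 0.049 ± 0.27 and 0.11 ± 0.27. Saline SN replicate 1 and 2 day VTA replicate 1, the outlying arrays for Fbxo7, were the 2 arrays of widest spread, and without them the 2 day SN difference became -0.60, the 10 day SN difference -0.31 and the 2 day VTA difference -0.26. Without saline SN replicate 2 the 2 day SN difference was -0.12.

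Between the regions of saline mice, 1 of 9 members, Sncg, had an unadjusted p under 0.05, against 4.36% of all genes. VTA minus SN was -0.91 ± 0.42 (limma, adjusted p = 1.00), the groups overlapped, and the difference was -0.31 without saline VTA replicate 1 and -1.30 without saline VTA replicate 3. The other members differed by -0.27 ± 0.35 for Lrrk2 to 0.062 ± 0.11 for Pink1. Averaged over the 3 treatments, Sncg was at -0.30 ± 0.24 and Park7 at 0.0062 ± 0.079 in VTA minus SN, and the exact two-sided permutation p was 0.305 and 0.930. Neither difference was larger than the spread between arrays.

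Signals of 3 members varied together over the 18 arrays. Of the 36 pairs among the 9 genes, 3 passed a permutation test of Pearson's r and of Spearman's rho after Benjamini-Hochberg adjustment, each with 100000 resamples, whose smallest possible p is 1e-05. For Park7 and Uchl1 r was 0.834 and rho 0.909 (permutation p = 3e-05 and 1e-05, adjusted 0.00108 and 0.00018). For Sncg and Park7 they were 0.789 and 0.882 (permutation p = 0.00021 and 1e-05, adjusted 0.00378 and 0.00018). For Sncg and Uchl1 they were 0.751 and 0.810 (permutation p = 0.00038 and 0.0001, adjusted 0.00456 and 0.0012). Without the 2 arrays farthest from the median of the first gene, r was 0.789, 0.700 and 0.709 in that order. Within the 9 SN arrays it was 0.784, 0.845 and 0.849, within the 9 VTA arrays 0.939, 0.785 and 0.793, and with group means removed 0.809, 0.686 and 0.841. The 3 genes thus varied together among arrays of the same treatment and region, not only between the groups. What share of all gene pairs reaches such r on these arrays was not computed. Other members reached similar r with the best of 16323 genes, such as Atp13a2 with Tmem52b at 0.846 and Vps35 with Gnpnat1 at 0.845. High r is therefore not particular to these 3 genes. The Sncg signals left a gap between 0.18 and 0.76, with 11 arrays below and 7 above. On the lower and the upper side, its r was 0.5 and 0.762 with Park7, and 0.455 and 0.586 with Uchl1. The synuclein genes Sncb and Sncg had r = -0.113, and Pink1 and Park7 0.333.

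**Figure D3:**
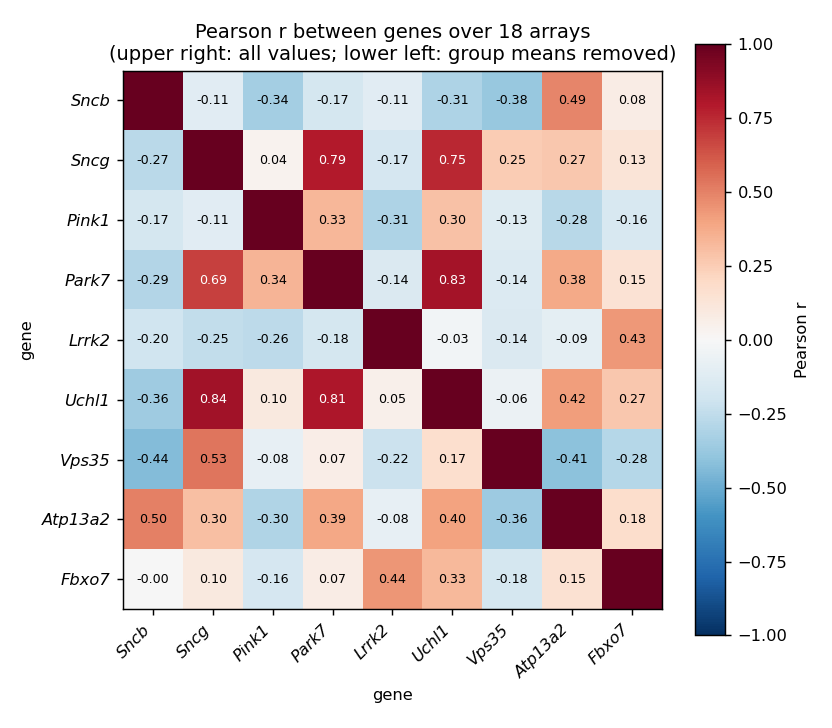
Pearson r between the 9 genes over 18 arrays (colour and number), with all values above the diagonal and with group means removed below it. The block of Sncg, Park7 and Uchl1 stands out on both sides, between 0.751 and 0.834 above and between 0.686 and 0.841 below.

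Each member was also set against the array means of 4 marker lists, in 36 tests. With the dopamine identity mean, Sncg had r = 0.900 and rho = 0.841 (permutation p = 2e-05 and 5e-05, adjusted 0.00072 and 0.0018). Park7 had r = 0.729 and rho = 0.728 (permutation p = 0.00079 and 0.00093, adjusted 0.0142 and 0.0167). For Uchl1, r = 0.632 missed the threshold and rho = 0.664 passed it (permutation p = 0.00539 and 0.00359, adjusted 0.0647 and 0.0431). Without the 2 arrays farthest from the median identity mean, r was 0.878 for Sncg, 0.768 for Park7 and 0.637 for Uchl1. Within the SN arrays r was 0.933, 0.816 and 0.713 and within the VTA arrays 0.905, 0.664 and 0.600 for the 3 genes in that order. On the lower and upper side of its gap, r of Sncg with the identity mean was 0.512 and 0.461. Pink1 had r = 0.0629 and Sncb -0.210. No relation of a member with the means of general neuron, astrocyte or oligodendrocyte markers passed. In 5 of the 6 groups, saline VTA being the exception, the highest Sncg array was also the highest on the identity mean. The 10 day replicates 3 of SN and VTA, at 0.28 and 0.56 on the identity mean, were examples. This count uses the same arrays as the r of Sncg with the identity mean and is not a separate result. With 3 arrays per group some matches arise without any relation, and the share over all genes was not computed.

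**Figure D4:**
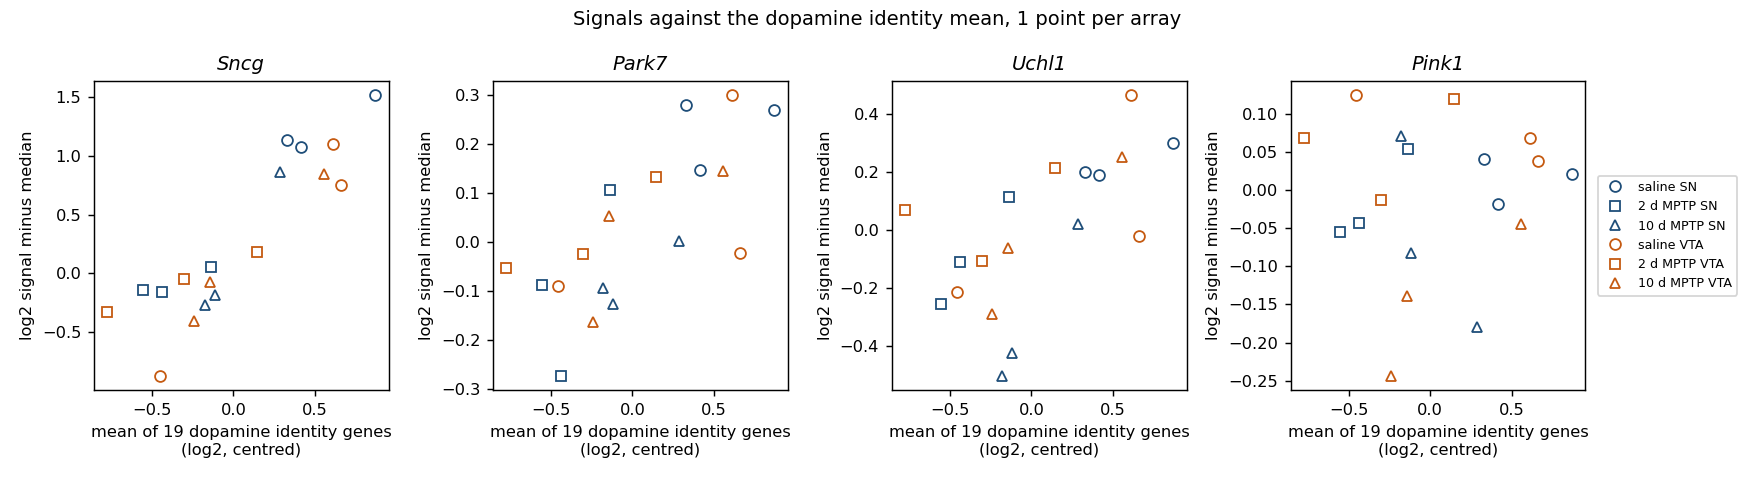
Signal of Sncg, Park7, Uchl1 and Pink1 (vertical axes, log2 minus the median) against the mean of 19 dopamine identity genes (horizontal axes, log2) with 1 point per array, coloured by region and shaped by treatment. Sncg is higher where the mean is higher, with r = 0.900, Park7 and Uchl1 with 0.729 and 0.632, and for Pink1 r is 0.0629.

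Likeness over the 18 arrays was measured by Pearson's r with the 16323 other genes whose symbol is not a clone or predicted gene name, as a description without a test. The gene most like Sncg was Th, which encodes the rate-limiting enzyme of dopamine synthesis, with r = 0.905 over 18 arrays. Next came Gch1, the GTP cyclohydrolase that makes the cofactor of that enzyme, at 0.899, and Fam210b at 0.893. The dopamine transporter gene Slc6a3 and the dopa decarboxylase gene Ddc stood at rank 12 and at rank 13 in that order, and the vesicular transporter gene Slc18a2 at rank 32. With group means removed, r of Sncg and Th was 0.924. For Park7 the most alike were Pfdn6 at 0.841, a prefoldin subunit gene, Uchl1 at 0.834 and Fam167a at 0.816, with Th at 0.771. For Uchl1 they were Cyb5r3 at 0.857, a cytochrome b5 reductase gene, Rcc2 at 0.847 and Wdr25 at 0.846, with Th at 0.694. Pink1 was most like Mrpl27, a mitochondrial ribosomal protein gene, at 0.747, and its r with Th was -0.00792. For Sncb the closest was Zfp764 at 0.823, for Lrrk2 Cep78 at 0.735, for Vps35 Gnpnat1 at 0.845, for Atp13a2 Tmem52b at 0.846 and for Fbxo7 Dnah7a at 0.815. Apart from Sncg, no member had Th or Slc6a3 among its 3 most alike genes. Th nevertheless stood at rank 11 for Park7 and at rank 138 for Uchl1, so a high place of Th was not particular to Sncg.

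Genes of the members' pathways were measured for 124 genes on 8 lists, and 0 of them passed limma's adjusted test in the 4 comparisons of MPTP with saline. At an unadjusted p under 0.05 they counted 5 in 2 day SN (4.03% against 6.65% of all genes), 8 in 10 day SN (6.45% against 5.57%), 12 in 2 day VTA (9.68% against 8.06%) and 7 in 10 day VTA (5.65% against 5.41%). These shares are near those of all genes. Of all genes, 44.7% were higher in 2 day SN, 46.6% in 10 day SN, 48.4% in 2 day VTA and 49.1% in 10 day VTA. Counts by direction are printed below for only some of these comparisons per list, and they were not tested. Among synuclein partners and vesicle proteins, 9 of 13 were higher and 4 lower in 2 day SN. The complexin gene Cplx1, a clamp of vesicle fusion, was at -0.66 ± 0.24 after 2 days and -0.59 ± 0.24 after 10 days in the SN, and the synapsin gene Syn2, whose product tethers vesicles, at 0.49 ± 0.19 after 2 days (limma, adjusted p = 0.646, 0.887 and 0.683).

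Of 27 genes of the PINK1 pathway and mitophagy, 12 were higher and 15 lower in 10 day SN, where Fis1, a mitochondrial fission gene, was at -0.56 ± 0.17 and Usp30, a deubiquitinase of mitochondria, at 0.39 ± 0.18 (limma, adjusted p = 0.833 and 0.889). All 12 measured antioxidant genes linked to DJ-1 were lower in 10 day VTA, with a median of -0.17 against -0.0047 for all genes, and 1 of them, the haem oxygenase gene Hmox1, had an unadjusted p under 0.05, at -0.87 ± 0.28 (limma, adjusted p = 0.695). After 2 days in the VTA Hmox1 was at -1.13 ± 0.28 (limma, adjusted p = 0.305), and 8 of 12 were lower. Counts of these 12 genes in the SN are not printed, and their directions were not tested. Microglia markers, a cell type that also makes haem oxygenase, had a median difference of -0.22 in 2 day VTA, with 8 of 10 lower, and -0.11 in 10 day VTA, with 7 lower. Their mean ran from 0.027 to 0.092 on saline VTA arrays, from -0.41 to 0.020 after 2 days and from -0.20 to 0.23 after 10 days. The part of these markers in the values of Hmox1 was not tested.

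Of 22 measured genes of the retromer and its endosomal partners, 13 were higher in 2 day VTA, with the WASH complex gene Washc5 at 0.63 ± 0.19 (limma, adjusted p = 0.404), and Washc2 was at 0.26 ± 0.12 and 0.30 ± 0.12 in the SN (adjusted p = 0.726 and 0.887). Of 20 LRRK2 substrates and partners, 12 were higher in 2 day VTA. Rilpl1, whose product binds Rab proteins that LRRK2 has phosphorylated, was at 0.44 ± 0.13 there and 0.31 ± 0.13 in 2 day SN (limma, adjusted p = 0.406 and 0.713). Of 10 ubiquitin hydrolase and ligase partners of UCHL1 and FBXO7, 7 were higher in 2 day VTA and 6 lower in 10 day SN, where Nedd8, the ubiquitin-like activator of cullin ligases, was at -0.34 ± 0.13 (limma, adjusted p = 0.887). Of 14 P5 ATPase and lysosomal genes, 10 were lower in 10 day SN, with the cathepsin D gene Ctsd at -0.36 ± 0.19 (limma, adjusted p = 0.925). The 11 further Parkinson disease genes had median differences from -0.13 in 2 day SN to 0.062 in 10 day VTA.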

How the data were processed

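RNA of laser captured cells was amplified and copied into cDNA, biotin labelled and hybridised to Affymetrix mouse arrays, 18 in all, 3 for each of 6 groups taken from the sample titles. The deposited values are log2 signals that the authors RMA normalised in GeneSpring GX (version 10.0), as the design text of the series says. Each probe set's median over the 18 arrays is 0, a property found in the values and stated in no source, so no level, detection call or filter on dim probe sets was possible. Background correction is not given in the sources used here.

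Of 45101 probe sets, 34945 had 1 symbol in the platform annotation, which can be old, 932 had several, 9160 had none and 64 were control probe sets, and only the first were used. Probe sets were averaged per gene. Differences were fitted with limma 3.58.1 in R 4.3.3 (6 group means, 18 arrays, 12 residual degrees of freedom), with Benjamini-Hochberg adjustment over 18193 genes within each of 14 comparisons and a threshold of 0.05, after a test on simulated data. Single values were also tested by exact permutation, of treatment within region or of region within treatment, and correlations by 100000 permutations in Python 3.11.15. Repeats of the correlations under other settings used fewer permutations. Errors of differences are standard errors. Non-overlap means that every array of one group lies above every array of the other. Pathway and marker lists were drawn from general knowledge. The members, lists and tests were chosen with earlier results of these data known, so no list is independent evidence. Named were the 9 genes, 4 dopamine genes, up to 2 genes each way of smallest p per pathway list and the 3 genes most like a member, and for length not every such gene is printed. Alternatives were other scalings, the probe set of largest SD, single probe sets, array weights, a replicate block, only the groups compared, and leaving out arrays.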

Additional observations from a re-analysis of the deposited data

How the results depend on the processing

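No member was called in any of the 14 comparisons under any of the 9 other settings run or with any of the 18 arrays left out, which gave a count of 0 in 245 of 245 values, and the smallest adjusted p of a member was 0.0518 (limma), for Sncg after 2 days averaged over regions without saline VTA replicate 1. The planned filter on low values was not run, since the values hold no level. Of 967 recomputed member differences, 57 changed sign, in 24 results, none of them called; the cause was not tested. Without the 2 arrays of widest spread, Sncb was 0.0070 in 2 day SN, Atp13a2 was 0.057 in 2 day SN, Lrrk2 was -0.17 in 10 day SN, Fbxo7 was -0.31 in 10 day SN, Fbxo7 was -0.26 in 2 day VTA, Sncb was 0.044 in saline VTA minus SN. With array weights, Lrrk2 was 0.027 in 2 day SN, Lrrk2 was -0.16 in 10 day SN, Fbxo7 was -0.21 in 10 day SN, Fbxo7 was -0.14 in 2 day VTA. With quantile normalisation repeated, Fbxo7 was -0.068 in 10 day SN, Fbxo7 was -0.037 in 2 day VTA. With the probe set of largest SD, Pink1 was 0.050 in 2 day SN, Atp13a2 was -0.032 in saline VTA minus SN. With single arrays left out, differences that changed sign ran over these ranges. In 2 day SN, Sncb -0.34 to 0.0070, Lrrk2 -0.39 to 0.28, Atp13a2 -0.17 to 0.057. In 10 day SN, Sncb -0.069 to 0.20, Lrrk2 -0.17 to 0.37, Fbxo7 -0.31 to 0.18. In 2 day VTA, Sncb -0.35 to 0.28, Pink1 -0.049 to 0.017, Park7 -0.12 to 0.073, Uchl1 -0.16 to 0.17, Vps35 -0.14 to 0.29, Atp13a2 -0.21 to 0.069, Fbxo7 -0.26 to 0.23. In 10 day VTA, Sncg -0.81 to 0.18, Park7 -0.13 to 0.068, Uchl1 -0.26 to 0.084, Vps35 -0.16 to 0.27, Atp13a2 -0.0022 to 0.28. In saline VTA minus SN, Sncb -0.21 to 0.044, Lrrk2 -0.51 to 0.019, Vps35 -0.33 to 0.096, Atp13a2 -0.15 to 0.14, Fbxo7 -0.34 to 0.14. Differences from saline of Sncg, Park7 and Uchl1 in the SN kept their sign in every setting. For these genes the saline and MPTP arrays of the SN did not overlap. Leaving out arrays therefore could not change the sign, and those settings do not test it.

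Correlations were recomputed, as Pearson's r only and with fewer permutations, in 4 of the other settings and with each of the 18 arrays left out. Those of Park7 with Uchl1, and of Sncg with both and with the identity mean, passed in each of these. Park7 with the identity mean ran from 0.678 to 0.803 as single arrays were left out and missed the threshold without saline SN replicate 1. Uchl1 with the identity mean ran from 0.581 to 0.735, passing without saline VTA replicate 2 or 2 day VTA replicate 1, with quantile normalisation repeated (0.645) and without the 2 arrays of widest spread (0.705).

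SN and VTA arrays of one treatment and replicate number correlated at r from 0.050 to 0.399 in their deviations from group means, with a median of 0.225. Arrays of one treatment and different number had a median of -0.104, with 1 of 18 pairs over 0.1. Of the pairs with one number, 7 of 9 were over 0.1, and as not all were, the numbers were not taken as pairing. Shared mice are not excluded by this, and 17 of 18 arrays correlated best with their own number. With a replicate block the 2 day SN difference of Sncg stayed at -1.33 (limma, adjusted p = 0.429 with a fixed block, 0.645 with a random one) and no member was called. The fixed block joined arrays of one number over all 6 groups, hence over treatments, and so does not stand for shared mice. Only the random block joined SN and VTA arrays within a treatment. If arrays do share mice, the correlations over 18 arrays rest on fewer animals. The same holds for the limma tests and exact permutations averaged over regions, which treat SN and VTA arrays as separate. Comparisons of VTA with SN, those of their responses and the permutation of region within treatment also ignored any such pairing. Every limma test of the main fit took its spread from all 18 arrays as separate.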
